A study of Mus musculus with 10 samples.

Results

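Sorted retinal cells of the control mice of an optic nerve crush (ONC) experiment are described here, from 5 of the 10 libraries of the study. They are the libraries labelled WT, which are 3 RNA-seq libraries (WT1, WT2 and WT3) and 2 ATAC-seq libraries, and they were chosen by label. All came from C57BL/6 mice with the genotype *Arid1a* fl/fl, labelled as 8 to 10 weeks old, so WT means an unrecombined floxed *Arid1a* gene and not an uninjured or unmodified mouse. AAV2-GFP, with GFP driven by a CMV promoter, had been injected into the vitreous 2 weeks before ONC in these mice, retinas were taken 3 days after ONC, and each sample was sorted with a Thy1.2 antibody from 4 to 5 pooled retinas. No uninjured retina is among these libraries, so a level given here is a level after crush and not a response to it.

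Retinal ganglion cells (RGCs) are the neurons whose axons form the optic nerve, and crushing the nerve cuts these axons and starts a stress and death programme in the cell bodies. *Thy1* is a surface protein that RGCs carry and that mouse T cells and some other cells carry too. ATAC-seq marks stretches of chromatin that a transposase can enter, and active promoters, in particular those rich in CpG dinucleotides, are usually among them.

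RNA levels are in TPM (transcripts counted relative to a fixed library total), a share of the RNA of a library corrected for transcript length. The table held 53974 genes, and 14938 of them, 27.7%, had at least 1 TPM in all 3 WT libraries and are called expressed below. A further 26340 genes were listed at 0 in all 3 libraries. Among protein-coding genes with a position in the genome, 12809 were expressed, 3437 had a mean above 0 and under 1 TPM and 4048 were listed at 0. Most protein-coding genes were thus expressed, and the count of expressed members of each list below is to be read beside that. The median of the mean TPM was 19.04 over the expressed genes. The libraries had 17295, 16759 and 17188 genes at 1 TPM or more in WT1, WT2 and WT3. TPM keeps no read numbers, so the depth behind these values could not be read from the table, and the precision of a level is given by the spread between libraries alone.

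The most abundant RNAs included those of antibody, mitochondrial and glial genes, with no RGC marker among them. *Igkc*, the constant region of the kappa antibody light chain, ranked first with 54204 TPM in WT1, 8579 in WT2 and 28864 in WT3. It was among the highest genes of every library, and WT1 and WT3 stood far above WT2. The antigen-presenting molecule *H2-K1* ranked 5th with 12110 TPM in WT1, 2059 in WT2 and 8372 in WT3, in the same order of libraries as *Igkc*. *Clu*, a secreted chaperone that Müller glia make, ranked 7th with 4845, 6384 and 8014 TPM in WT1, WT2 and WT3. The mitochondrially encoded *mt-Atp6*, *mt-Cytb*, *mt-Co1* and *mt-Nd1* also stood among the 20 highest genes, as did *Gm10925* and *Gm29216*, 2 predicted genes for which reads shared with near-identical mitochondrial sequence could have been split. Also among the 20 highest were the retinal mitochondrial gene *Mgarp*, the glycolytic enzyme *Gapdh*, the lipid carrier *Apoe*, the antibody heavy chain *Igha*, the class II chaperone *Cd74*, the secreted glial protein *Dkk3*, the membrane protein *Itm2b*, the ferritin chain *Fth1*, the creatine kinase *Ckb* and the immediate early transcription factor *Fos*.

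The RGC markers were at low levels in the sorted cells. *Thy1* itself, the antigen of the sort, was at 88.5 TPM in WT1, 51.9 in WT2 and 62.7 in WT3, with a mean of 67.7 TPM ± 18.8 (SD, n = 3), which ranked 2813 of all genes. *Isl1*, a transcription factor of RGCs and of bipolar and amacrine cells, was at 51.9, 98.0 and 60.9 TPM in WT1, WT2 and WT3. These were the only members of the 16-gene RGC list with a mean above 20 TPM, and other retinal cells or T cells also express both. *Rbpms*, an RNA-binding protein that marks nearly all RGCs, was at 5.33 TPM in WT1, 6.43 in WT2 and 2.51 in WT3. The neurofilament gene *Nefl* was at 12.0, 20.6 and 5.47 TPM, *Rbpms2*, a relative of *Rbpms*, at 4.42, 8.65 and 6.18 TPM, and the neuronal tubulin gene *Tubb3* at 5.32, 4.71 and 3.45 TPM in the same order. Each of these was present in every library, at a small part of the level of *Clu*. *Pou4f2*, the transcription factor that defines most RGCs, was listed at 0 in all 3 libraries. *Pou4f1* was at 2.39, 3.60 and 0.0838 TPM, and the glutamate transporter *Slc17a6* at 1.57, 0.736 and 0.593 TPM, in WT1, WT2 and WT3. In all, 11 of the 16 members were expressed, as were most protein-coding genes, and the median member was at 3.63 TPM. Among the 20 cell type lists the RGC list was the 12th by its median member. The RNA markers therefore go against the label of purified RGCs, and the libraries are called sorted cells here. The authors reported nearly all sorted cells as positive for neuronal tubulin protein by immunostaining, which counts cells and does not measure RNA. In bulk RNA, fewer RGCs and less RNA of these genes per RGC cannot be told apart.

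The rod, cone, bipolar and amacrine lists stood above the RGC list by their median member. All 13 rod genes were expressed, with summed levels of 17671 TPM in WT1, 15341 in WT2 and 21317 in WT3 and a median member of 284 TPM. The rod transducin *Gnat1* was at 3122, 2501 and 3772 TPM, the arrestin *Sag* at 1628, 1193 and 2124 TPM, and *Gnb1*, a transducin subunit with wide expression, at 1528, 1363 and 2054 TPM. All 9 cone genes were expressed as well, led by the short-wavelength pigment *Opn1sw* at 1117, 1339 and 1623 TPM, *Gnat2* at 351, 547 and 514 TPM and the second cone pigment *Opn1mw* at 168, 136 and 155 TPM. The highest library exceeded the lowest by at most 2.21-fold, the value of the cone gene *Pde6c*, for every rod and cone gene except the cone transducin subunit *Gngt2* at 224, 35.5 and 88.1 TPM.

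The bipolar list, of the interneurons that carry photoreceptor signals inward, had all 10 members expressed and a median member of 137 TPM. *Scgn*, a calcium-binding protein, led it at 291, 473 and 267 TPM in WT1, WT2 and WT3, and *Cabp5*, another one, was at 218, 289 and 151 TPM. Of the amacrine list 7 of 9 members were expressed. They were led by the glycine transporter *Slc6a9* at 252, 130 and 83.2 TPM and the GABA-synthesising enzyme *Gad1* at 109, 88.2 and 81.6 TPM. Only *Prox1* of the 5 horizontal cell genes was expressed, at 45.2, 73.2 and 62.5 TPM, a gene that bipolar and amacrine cells share.

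The Müller glia list had the highest median member of the 20 lists, at 1105 TPM, and all 10 members were expressed. Müller glia span the retina and clear glutamate and potassium. After *Clu* came *Dkk3*, at 2608 TPM in WT1, 4501 in WT2 and 5442 in WT3, and *Rlbp1*, which binds retinoid in the visual cycle, at 1146, 1725 and 2177 TPM. The water channel *Aqp4* was at 704, 1823 and 1671 TPM. For these genes WT1 was the lowest library, and the list summed to 11010 TPM in WT1 against 18142 in WT2 and 20724 in WT3. *Vim*, an intermediate filament of glia, had the same order with a small spread, at 321, 334 and 348 TPM.

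Every immune list but that of neutrophils had a higher median member than the RGC list. All 18 microglia and macrophage genes were expressed, with a median of 82.5 TPM. *Lyz2*, the lysozyme of macrophages, was at 1279 TPM in WT1, 1069 in WT2 and 1362 in WT3. *C1qa*, which starts the classical complement pathway, was at 568, 475 and 1010 TPM, and *Ly6c2*, of monocytes and some lymphocytes, at 901, 260 and 334 TPM. The resident microglia genes *Tmem119*, at 45.6, 70.6 and 134 TPM, and *P2ry12*, at 22.7, 32.0 and 50.1 TPM, were highest in WT3, whereas *Ly6c2* was highest in WT1.

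All 16 T cell genes were expressed, with a median member of 59.8 TPM. The T cell receptor constant regions led the list, *Trac* at 952, 334 and 771 TPM, *Trbc2* at 923, 263 and 673 TPM, and *Trbc1* at 436, 204 and 510 TPM. The adhesion molecule *Cd2* was at 217, 89.7 and 159 TPM. WT2 was the lowest library for all 4 of these genes. The 2 lineage co-receptors were both present, *Cd4* at 119, 42.4 and 92.7 TPM and *Cd8a* at 54.5, 22.6 and 67.8 TPM. All 7 genes of the NK cell list were expressed too, led by *Nkg7* at 215, 42.7 and 144 TPM.

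In the B cell list the antibody genes and the cell surface genes were far apart. *Jchain*, which joins secreted antibody chains, was at 5877 TPM in WT1, 866 in WT2 and 3057 in WT3. *Ighm* was at 130, 51.5 and 55.7 TPM. The B cell receptor component *Cd79b* was at 32.9, 14.7 and 36.2 TPM and its partner *Cd79a* at 39.8, 7.28 and 29.96 TPM, while the factor *Pax5*, which sets the B cell identity, was between 0 and 0.221 TPM. *Igkc*, *Igha* and *Jchain* thus stood far above *Cd79a* and *Cd79b* in every library, and *Ighm* was nearer to them. *Sdc1*, a surface protein of plasma cells, was at 13.1, 7.73 and 12.6 TPM. The plasma cell factors *Prdm1* and *Xbp1* were at 8.10, 2.76 and 11.9 TPM and at 339, 420 and 355 TPM. *Prdm1* was thus highest in WT3 and *Xbp1* highest in WT2, unlike *Igkc*. *Sdc1*, *Prdm1* and *Xbp1* were chosen after their values were seen.

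Most vessel and other glial genes were at a few TPM or less, with medians of 4.82 TPM for the endothelial, 3.28 for the pericyte and smooth muscle, 3.25 for the oligodendrocyte and 2.55 for the astrocyte list. The endothelial list had 6 of 9 members expressed, led by the VEGF receptor *Kdr* at 194, 453 and 519 TPM, while the junction gene *Cdh5* had a mean of 0.318 TPM. The pericyte and smooth muscle list had 4 of 8 expressed, led by *Rgs5* at 166, 116 and 473 TPM. For astrocytes 3 of 5 were expressed, led by *Gfap* and *Aldh1l1*, and *Pax2*, which marks retinal astrocytes, was at 0.0816 TPM in WT3 and at 0 in the others. For oligodendrocytes 3 of 6 were expressed, led by *Cnp* at 52.0, 62.1 and 61.5 TPM, and *Olig2* was at 0.0583 TPM in WT3 and at 0 in the others.

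Few neutrophil, pigment epithelium and lens genes were expressed. Of the neutrophil list, 2 of 8 members were expressed, and *Ly6g*, the surface antigen that defines the cell, was at 0.151 TPM in WT1 and listed at 0 in WT2 and WT3. For the pigment epithelium 1 of 6 was expressed, *Rdh5*, and *Rpe65* was between 0 and 0.176 TPM. The lens gene *Cryba1* was at 45.3 TPM in WT1, 1.86 in WT2 and 0 in WT3, and *Crygd*, a lens crystallin that was no member of the list, was at 106 TPM in WT1 and at 0 in both others (named after its values were seen). Of the fibroblast list 4 of 6 genes were expressed, led by *Col3a1* at 3.55, 5.33 and 11.9 TPM. The erythrocyte list was highest in WT3, with summed levels of 306, 94.3 and 1353 TPM.

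**Figure D1:**
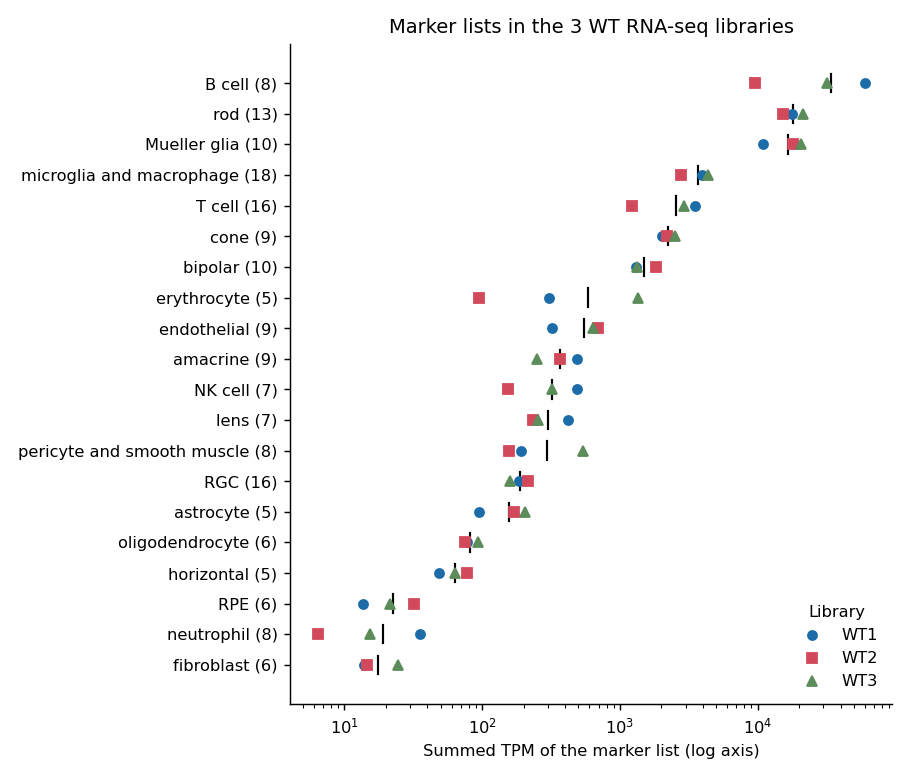
Summed TPM of the 20 cell type marker lists, on a log axis, in the 3 WT RNA-seq libraries. Each symbol is 1 library, the black bar is the mean, and the number of members is in brackets. The RGC list lies between 159 and 217 TPM, and the rod and Müller glia lists lie at 11010 TPM or more in every library.

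**Figure D2:**
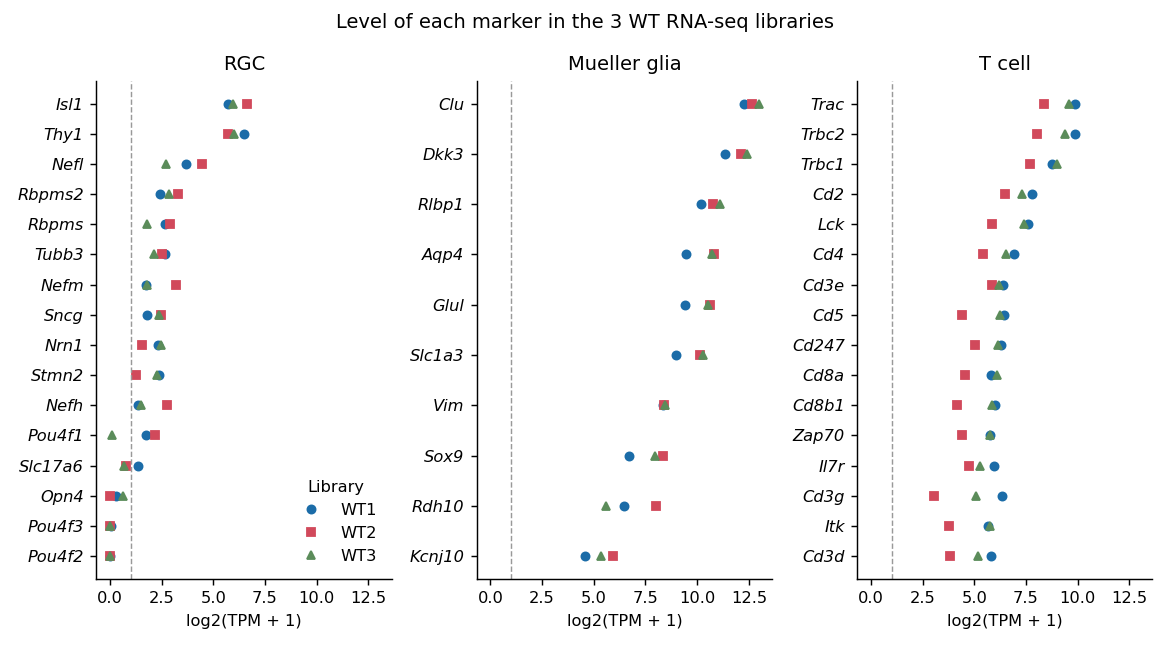
Level of every member of the RGC, Müller glia and T cell lists as log2(TPM + 1), with 1 symbol for each WT library. The dashed line is 1 TPM. All 16 T cell genes and all 10 Müller glia genes lie to the right of the line in every library, and *Pou4f2* lies at 0.

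Genes of the injury response were present beside these markers. *Jun*, the transcription factor through which the kinase cascade of injured axons acts in the RGC nucleus, was at 791 TPM in WT1, 1230.4 in WT2 and 1504 in WT3. *Klf6*, a transcription factor linked to axon growth, was at 312, 154 and 265 TPM. *Atf4*, a factor of the integrated stress response, was at 184, 177 and 182 TPM, one of the smallest spreads of all genes at 100 TPM or over, and its target *Ddit3* was at 79.1, 155 and 86.1 TPM. These 4 genes led a list of 16 axon injury genes, of which 11 were expressed, as were most protein-coding genes. *Atf3*, which injured neurons induce, was at 56.0, 24.8 and 85.6 TPM, and *Map3k12*, the upstream kinase DLK, at 15.7, 26.6 and 31.0 TPM. The regeneration-associated genes *Sprr1a* and *Gal* were lower, with means of 1.86 and 0.281 TPM, and *Sox11*, a factor of regrowing neurons, had a mean of 0.722 TPM ± 0.282 (SD, n = 3).

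The immediate early genes, which cells switch on within minutes of a stimulus, were higher still. *Fos* was at 3729 TPM in WT1, 2514 in WT2 and 4346 in WT3. *Junb* was at 546, 594 and 856 TPM, *Ier2* at 584, 1087 and 320 TPM, and the phosphatase gene *Dusp1* at 534, 623 and 669 TPM. Of the 14 genes 13 were expressed, and *Arc*, a gene of active synapses, was not. The retinas had been digested with papain, stained and sorted before the libraries were made. The parts of this handling and of the crush in these levels were not tested, and these libraries cannot tell them apart.

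RNA of ligands, receptors, kinases and feedback inhibitors of the gp130 cytokine pathway was found in the sorted cells. Bulk RNA does not show whether the same cells made them. Among the ligands, *Cntf* was at 11.6, 21.6 and 22.6 TPM, *Lif* at 3.23, 4.23 and 6.00 TPM, and *Il6* at 1.39, 0 and 1.02 TPM in WT1, WT2 and WT3. The shared receptor *Il6st*, which encodes gp130, was at 37.1, 88.0 and 82.2 TPM. The CNTF receptor subunit *Cntfr* was at 22.7 TPM in WT1, 270 in WT2 and 22.7 in WT3, so 1 library set its mean. *Jak1*, the kinase below the receptor, was at 208, 171 and 293 TPM, the transcription factor *Stat3* at 109, 153 and 174 TPM, and the feedback inhibitor *Socs3* at 144, 154 and 258 TPM. Of this list 17 of 18 genes were expressed, all but *Il6*.

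Interferon-induced genes were expressed in full, 17 of 17, with *Irf1* at 189, 113 and 184 TPM, *Ifit3* at 162, 147 and 101 TPM and *Irf9* at 115, 116 and 122 TPM. The 13 antigen presentation genes were expressed too. Beside *H2-K1* and *Cd74*, the light chain *B2m* was at 4779, 1195 and 2622 TPM and *H2-D1* at 3516, 1142 and 2838 TPM, both lowest in WT2. The class II genes *H2-Aa* and *H2-Ab1*, which professional antigen-presenting cells make, were at 1889, 1192 and 1828 TPM and at 1935, 1735 and 2188 TPM. Of the gliosis list 8 of 10 genes were expressed, with the copper carrier *Cp* at 394, 922 and 991 TPM and *Gfap* at 63.0, 75.7 and 116 TPM.

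All 18 genes of the BAF chromatin remodelling complex were expressed. The floxed gene *Arid1a*, its largest subunit, was at 18.8, 11.7 and 14.1 TPM in WT1, WT2 and WT3. The alternative ATPases were *Smarca2*, at 101, 149 and 140 TPM, and *Smarca4*, at 24.3, 41.1 and 42.2 TPM. The highest subunits were *Smarcb1* at 150, 262 and 203 TPM, *Dpf2* at 102, 180 and 160 TPM, and *Smarcc2* at 79.6, 186 and 144 TPM, each lowest in WT1. The neuronal subunits *Actl6b*, at 15.2, 13.1 and 8.30 TPM, and *Dpf1*, at 2.15, 1.81 and 1.19 TPM, lay below their counterparts *Actl6a*, with a mean of 65.6 TPM, and *Dpf2*. Of the apoptosis genes all 16 were expressed, led by the survival gene *Bcl2l1* at 221, 286 and 372 TPM and the death gene *Bax* at 158, 227 and 71.1 TPM. The proliferation list had 8 of 10 expressed, with *Pcna*, the polymerase clamp, highest at 30.6, 3.61 and 21.3 TPM, and *Mki67* and *Cdk1* were not expressed. In contrast, of 30 transcription factors that pattern other tissues 1 was expressed, *Tbx5*, which also patterns the dorsal retina, at 2.24, 3.68 and 5.18 TPM, and 20 were listed at 0 in all libraries, among them *Hoxa5*, *Gata4*, *Myod1* and *Pdx1*. None of the 10 secreted or contractile products of other tissues, such as *Alb* and *Ins2*, was expressed.

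The 3 libraries were unequal in their agreement with each other. Over the 17520 genes with a mean of at least 1 TPM, the median SD of log2(TPM + 1) was 0.43, and the median of the absolute log2 difference was 0.61 between WT1 and WT2, 0.43 between WT1 and WT3 and 0.47 between WT2 and WT3. Pearson's r across these genes was 0.843, 0.909 and 0.861 for the same pairs, as a description, since genes are not independent replicates. WT2 was the farthest of the 3 libraries for 41.1% of genes, WT1 for 35.7% and WT3 for 23.3%. WT2 exceeded both others by more than 2-fold for 1232 genes and lay below both by more than 2-fold for 1223. The same counts were 640 and 582 for WT1 and 384 and 678 for WT3.

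Antibody genes took much of the largest spread. The 387 immunoglobulin genes made up 15.0% of all TPM in WT1, 1.61% in WT2 and 7.47% in WT3. Among the genes with a mean of at least 10 TPM, all of the 10 with the largest SD of log2(TPM + 1), and 90 of the 100 largest, were immunoglobulin genes. The gene segment *Igkv13-85* was at 1106 TPM in WT1, 0 in WT2 and 473 in WT3, and *Igkv12-46* at 1829.7, 0 and 105 TPM. *Ighv1-82*, a heavy chain segment, was at 1049 TPM in WT1 and at 0 and 1.48 TPM in the others. The 7 others of these 10, *Igkv9-124*, *Igkv4-74*, *Igkv6-25*, *Igkv4-68*, *Igkv4-61*, *Igkv8-18* and *Igkv4-70*, were likewise listed at 0 in WT2 and lay between 513 and 1530.2 TPM in WT1. Each clone of antibody-producing cells uses its own light and heavy chain segments. In WT1 85 of the 160 kappa variable genes reached 1 TPM, against 37 in WT2 and 77 in WT3. T cell receptor alpha variable genes did so for 68, 7 and 46 of 111. WT2 also had fewer genes above 0 TPM over all genes, 20942 against 24963 in WT1 and 24348 in WT3. Near-identical segments share reads, so the value of a single segment is uncertain. The part of unequal numbers of antibody-producing cells in the spread of other genes was not tested, and the T cell list, lowest in WT2 for its sum at 1217 TPM against 3498 in WT1 and 2929 in WT3, had the same order.

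Outside the antibody genes the spread had other patterns. *Gas1*, a growth arrest gene, was at 77.6 TPM in WT1, 710.3 in WT2 and 5.88 in WT3, and the cell cycle inhibitor *Cdkn1c* at 12.3, 229 and 3.23 TPM. Both were highest in WT2 and lowest in WT3. The ribosomal protein gene *Rpl38* was instead highest in WT1 and lowest in WT2, at 334, 5.53 and 77.3 TPM, and the mitochondrial subunit *Cox7c* likewise at 173, 4.09 and 45.3 TPM. Ribosomal protein genes as a class summed to 1.52% of TPM in WT1, 0.551% in WT2 and 0.801% in WT3. At the other end, the splicing factor gene *Bud31* was at 144, 144 and 140.4 TPM and *Gapdh* at 5239.7, 4696 and 4999.7 TPM. The genes of this paragraph apart from *Gapdh* were chosen after their values were seen.

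**Figure D3:**
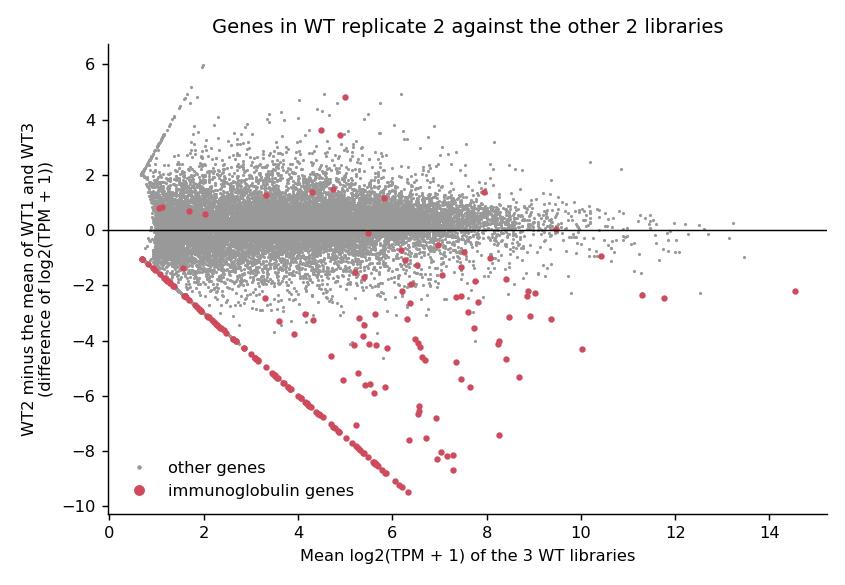
Difference of log2(TPM + 1) between WT2 and the mean of WT1 and WT3, against the mean of the 3 libraries, for the 17520 genes with a mean of at least 1 TPM. Immunoglobulin genes are red and most lie below 0, and the diagonal line of points at the lower left holds genes listed at 0 in WT2.

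The ATAC-seq libraries are also called WT1 and WT2 by their replicate number. They are different samples from the RNA-seq libraries of the same name, and no label pairs them. The ATAC-seq files hold peak positions without heights, with 76522 peaks in WT1 and 42265 in WT2. Of these, 10393 and 10329 overlapped a peak of the other file by at least 1 bp. The overlaps made 10479 shared peaks with a median width of 411 bp, and 7056 of them lay within 1000 bp of the end of an annotated gene. Of these, 6532 lay at an end of an expressed gene and 524 only at genes that were not expressed. For the comparison with RNA, 38563 genes of the TPM table could be placed in the mouse genome (RefSeq annotation, GRCm38.p6). Of all these, 22.1% had a shared peak within 1000 bp of an end.

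The share of genes with a shared peak was higher in each RNA class up to 10 to 100 TPM. It was 1.93% (Wilson 95% interval 1.73 to 2.16%) of the 16139 genes listed at 0 in all 3 libraries, 8.31% (7.68 to 8.998%) of genes with a mean above 0 and under 1 TPM, and 33.8% (32.6 to 35.1%) of genes from 1 to 10 TPM. From 10 to 100 TPM it was 57.0% (55.9 to 58.1%), and at 100 TPM and over 58.9% (56.6 to 61.2%), so that the intervals of the 2 highest classes overlapped. Among protein-coding genes these classes were at 58.8% (57.7 to 59.9%) and 63.4% (61.1 to 65.7%), and the intervals did not overlap. In finer bins the share was highest, at 61.2%, for a log2 of the mean TPM from 6 to 7, and was 50.9% in the 55 genes from 10 to 11. These intervals cover counting error only, and neighbouring genes that share a peak are not independent. Of the 13936 expressed genes with a position, 7347 or 52.7% had a shared peak, 22.9% had a peak of 1 file or peaks that did not overlap, and 3393 or 24.3% had a peak in neither file. The 2 ATAC-seq libraries alone gave 69.0% and 62.0% for WT1 and WT2, and 9.66% and 5.54% of the genes listed at 0.

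Near expressed genes, shared peaks sat mostly at the gene start. Among the 10703 expressed genes for which the strand was known, 54.8% had a shared peak within 1000 bp of the 5′ end and 2.71% within 1000 bp of the 3′ end. Over the 13827 annotated starts of expressed genes, 7573 pairs of a start and a shared peak centre within 1000 bp were found, with a peak near several starts counted for each. Of these pairs 74.0% lay within 250 bp, and the median position was 9 bp upstream, given as -9 bp. The peaks of the files and the annotation thus lined up. Shared peaks at highly expressed genes were also wider, with a median of the longest peak of 464 bp from 1 to 10 TPM and 538 bp at 100 TPM and over, against 426.5 bp at genes listed at 0.

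**Figure D4:**
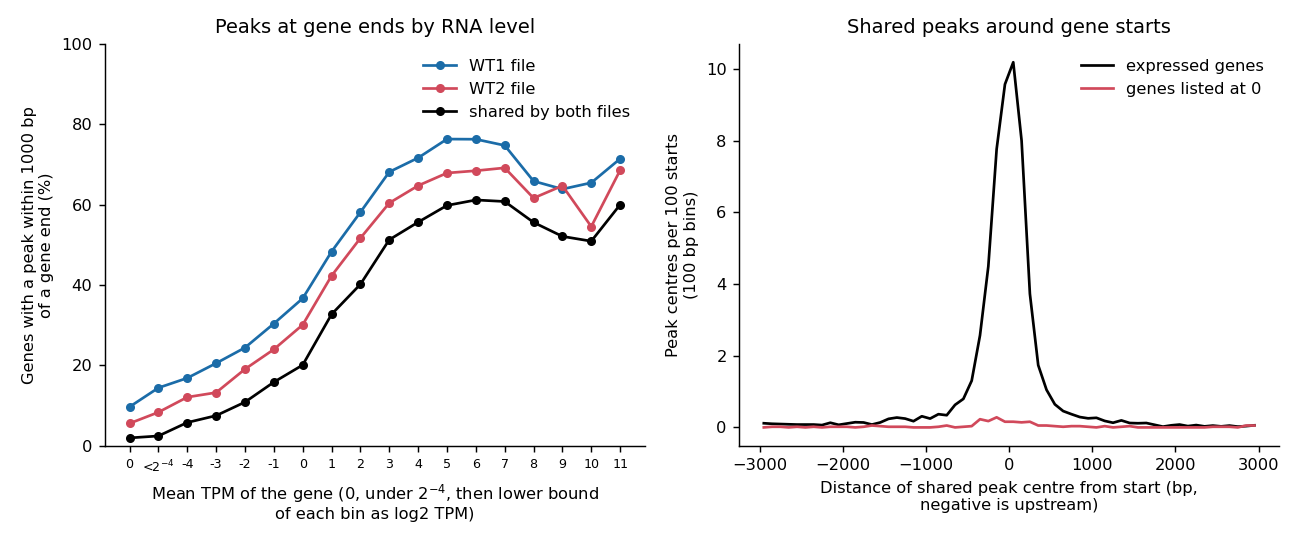
Left, the percentage of genes with a peak within 1000 bp of a gene end against the mean TPM of the gene, for each ATAC-seq file and for shared peaks. Right, centres of shared peaks per 100 annotated starts in bins of 100 bp, for expressed genes and for genes listed at 0. The shared curve goes from 1.93% at 0 TPM to 61.2% at its highest, and centres gather at the start of expressed genes.

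Cell type and programme lists were compared by how often a shared peak was found. Of 138 expressed members of the 20 cell type lists, 16 had a shared peak, which is 11.6% against 52.7% of all expressed genes. Of 117 expressed members of the injury, immediate early, interferon, antigen presentation, gliosis, JAK-STAT, BAF, proliferation and apoptosis lists, 66 had one, which is 56.4%. The gap remained among abundant RNAs. At a mean of 100 TPM or over, 9 of 50 cell type genes (18.0%) and 24 of 38 programme genes (63.2%) had a shared peak, against 58.9% of all genes at that level. The programme lists were not alike, since 5 of 17 interferon genes (29.4%), 2 of 8 gliosis genes and 6 of 13 antigen presentation genes (46.2%) had one, below the 52.7% of all expressed genes. No test of these shares was made, since the lists were drawn up by hand.

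The rod list held 1 gene of 13 with a shared peak, *Rom1*, a structural protein of the outer segment, and the peak overlap covered 738 bp at chr19:8929179-8929916. *Gnat1*, *Gnb1* and *Sag* had no peak in either file. None of the 9 cone genes had a shared peak. Of the 18 microglia and macrophage genes 1 had one, and 16 had no peak in either file. The Müller glia list was higher, at 4 of 10, with *Clu*, *Glul*, *Vim* and *Rdh10*. T cell genes stood at 3 of 16, with *Cd2*, *Cd3d* and *Cd3e*, and the B cell and NK cell lists at 1 of 7 each, with *Jchain* and *Nkg7*. The shared peaks of *Cd3d* and *Jchain* lay at the downstream end of the gene and not at its start. Of the 11 expressed RGC genes *Tubb3* and *Nefh* had a shared peak, and *Thy1* had no peak in either file. The shared stretch was 20 bp at *Tubb3* and 198 bp at *Nefh*, and neither was left when peaks had to overlap by 50% of each.

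Axon injury and immediate early genes were at the other end. Over all expressed genes the share was 52.7%. Of the 11 expressed axon injury genes, 9 had a shared peak, and *Chac1* and *Sox11*, which were not expressed by the 1 TPM rule, had one as well. Of the 13 expressed immediate early genes 10 had one, *Fos*, *Junb* and *Egr1* among them, with a width of 377 bp at *Fos*, 358 bp at *Junb* and 1685 bp at *Egr1*. The JAK-STAT and BAF lists lay nearer to the 52.7% of all expressed genes. Of the JAK-STAT genes 11 of 17 (64.7%) had a shared peak, including *Il6st*, *Jak1*, *Stat3* and *Socs3*, and *Cntfr* had no peak in either file. BAF genes stood at 12 of 18 (66.7%), with 839 bp at *Arid1a* and 770.0 bp at *Smarca4*. Housekeeping genes stood at 9 of 10, the exception being *Actb*, at 1219 TPM with no peak in either file. None of the 30 developmental regulators of other tissues had a shared peak, whether expressed or not. Only 1 of them was expressed and 20 were listed at 0. Over all genes the share was 1.93% at 0 TPM and 8.31% at a mean above 0 and under 1 TPM, so a count of 0 is near these shares. Beside the same shares, 2 of the 10 secreted or contractile products of other tissues, none of them expressed, had a shared peak. It covered 119 bp at *Acta1* and 391 bp at *Apoa2*.

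**Figure D5:**
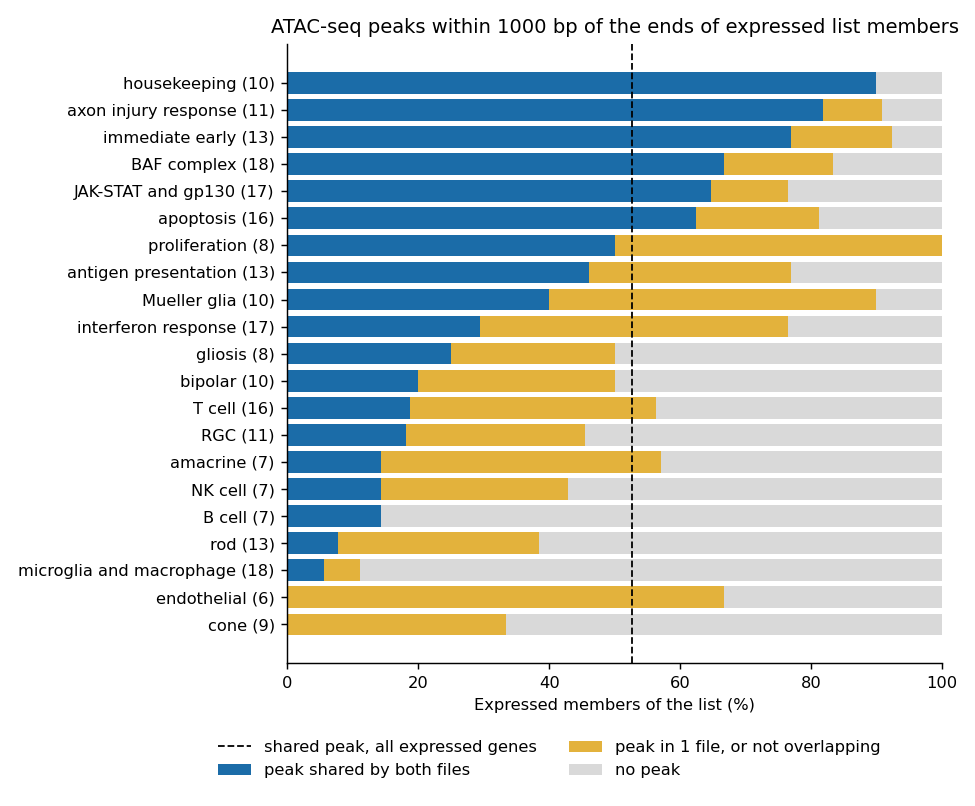
Expressed members of each list with at least 6 such genes, in percent, by whether a peak shared by both WT ATAC-seq files lay within 1000 bp of a gene end, a peak in 1 file or not overlapping, or no peak. The number of expressed members is in brackets and the dashed line is the 52.7% of all expressed genes. Housekeeping, injury and immediate early genes lie to the right of the line, and all cell type lists lie to its left.

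Some of the most abundant RNAs had no peak at their gene. The 10 highest genes with a position and no peak of either file within 1000 bp were *Igkc*, *Apoe*, *Fth1*, the antibody segments *Igkv6-32* and *Igkv10-96*, *Gnat1*, the enolase gene *Eno1b*, the class II gene *H2-Ab1* and the pseudogenes *Gm1821* and *Gm12671*. *Apoe* was at 3325, 5236 and 5973 TPM and *Fth1* at 4122, 3106 and 3836 TPM in WT1, WT2 and WT3. Both are compact genes, of 5067 and 4512 bp, and many cell types express them. *Eno1b*, *Gm1821* and *Gm12671* are near-copies of other genes, so reads of the original gene could have been assigned to them and their TPM is uncertain.

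The spread of RNA between libraries was smaller for genes with a shared peak. The median SD of log2(TPM + 1) was 0.39 with and 0.51 without one from 1 to 10 TPM, 0.37 and 0.46 from 10 to 100 TPM, and 0.35 and 0.51 at 100 TPM and over. Among protein-coding genes at 100 TPM and over the medians were 0.35 and 0.45.

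Sequence content of the promoters differed between the genes with and without a shared peak. RefSeq promoter windows of 300 bases, from 250 before to 50 after a start, matched 20682 genes. The 6618 windows of expressed genes that a shared peak overlapped had a median of 24 CpG dinucleotides and 63.3% G and C, and the 7224 windows of expressed genes without one had 12 CpG and 56.3%. Of the expressed windows with 0 to 4 CpG 2.66% were overlapped, with 5 to 9 CpG 12.7%, with 10 to 19 CpG 48.5%, with 20 to 29 CpG 68.1% and with 30 or more 66.5%. The median of the mean TPM in these bins ranged from 17.2 to 26.2, so RNA level moved little across them. The lists differed in the same measure. The median CpG number was 4 in windows of expressed rod genes, 2 in cone genes, 4 in microglia and macrophage genes and 4.5 in T cell genes, and 22.5 in immediate early genes, 23 in axon injury genes and 33 in BAF genes. Other lists lay between or crossed this division, with medians of 11 in Müller glia, 14 in amacrine and 15.5 in endothelial genes, and of 4 in gliosis, 6 in interferon and 14 in antigen presentation genes. The 4 RGC genes with a window had a median of 31.5 CpG and 1 of them was overlapped. The part of CpG content in the difference between marker and programme lists was not tested.

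Short motifs were counted in the same windows. Searched on both strands, the GC box (GGGCGG) was in 74.1% of overlapped and 46.2% of other expressed windows, the ETS site (CCGGAAG) in 22.1% and 10.9%, the CRE (TGACGTCA) in 4.28% and 1.59%, and the CCAAT box (CCAAT) in 42.8% and 32.8%. The TATA box (TATAAA), at 4.59% and 10.1%, and the AP-1 site (TGANTCA), at 3.34% and 6.89%, were more frequent in the windows without a shared peak. Of all 25317 windows, 42.0% held the GC box, 10.5% the ETS site, 2.11% the CRE, 37.7% the CCAAT box, 12.6% the TATA box and 7.46% the AP-1 site. A match is a string of letters and not a bound site.

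Promoters of expressed genes with a shared peak are printed for the lists of injury, gp130, RGC and T cell genes. They are RefSeq sequence (GRCm38.p6), 5′ to 3′ on the strand of the gene, and capitals mark any of the 6 motifs on either strand.
*Jun*: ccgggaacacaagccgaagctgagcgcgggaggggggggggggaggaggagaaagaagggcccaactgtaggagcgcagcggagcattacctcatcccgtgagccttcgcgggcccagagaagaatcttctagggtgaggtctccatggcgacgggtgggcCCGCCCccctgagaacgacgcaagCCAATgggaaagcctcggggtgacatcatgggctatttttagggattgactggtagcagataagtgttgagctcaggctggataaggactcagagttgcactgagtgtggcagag
*Klf6*: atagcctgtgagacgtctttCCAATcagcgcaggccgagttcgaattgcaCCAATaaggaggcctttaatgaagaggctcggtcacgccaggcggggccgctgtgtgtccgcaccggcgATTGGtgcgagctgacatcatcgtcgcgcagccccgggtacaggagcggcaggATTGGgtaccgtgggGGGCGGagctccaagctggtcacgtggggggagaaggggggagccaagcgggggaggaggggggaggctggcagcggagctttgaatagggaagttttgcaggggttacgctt
*Jak1*: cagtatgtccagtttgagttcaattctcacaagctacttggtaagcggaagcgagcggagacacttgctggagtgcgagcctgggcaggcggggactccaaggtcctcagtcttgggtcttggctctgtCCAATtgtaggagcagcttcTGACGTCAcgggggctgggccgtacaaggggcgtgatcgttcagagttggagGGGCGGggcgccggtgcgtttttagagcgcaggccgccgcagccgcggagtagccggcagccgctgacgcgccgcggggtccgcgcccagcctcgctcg
*Socs3*: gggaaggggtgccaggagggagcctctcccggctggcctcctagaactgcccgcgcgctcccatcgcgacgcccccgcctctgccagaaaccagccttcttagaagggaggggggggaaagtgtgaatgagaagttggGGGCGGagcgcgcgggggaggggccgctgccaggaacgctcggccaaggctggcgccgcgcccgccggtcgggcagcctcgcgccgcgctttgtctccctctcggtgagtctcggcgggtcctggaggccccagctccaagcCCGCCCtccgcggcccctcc
*Tubb3*: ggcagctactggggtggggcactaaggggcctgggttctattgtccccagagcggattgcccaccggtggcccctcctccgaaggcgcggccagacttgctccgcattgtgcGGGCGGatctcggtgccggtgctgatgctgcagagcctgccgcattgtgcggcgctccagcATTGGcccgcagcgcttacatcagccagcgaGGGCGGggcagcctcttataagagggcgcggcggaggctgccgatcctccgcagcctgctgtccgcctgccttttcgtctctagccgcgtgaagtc
*Cd3e*: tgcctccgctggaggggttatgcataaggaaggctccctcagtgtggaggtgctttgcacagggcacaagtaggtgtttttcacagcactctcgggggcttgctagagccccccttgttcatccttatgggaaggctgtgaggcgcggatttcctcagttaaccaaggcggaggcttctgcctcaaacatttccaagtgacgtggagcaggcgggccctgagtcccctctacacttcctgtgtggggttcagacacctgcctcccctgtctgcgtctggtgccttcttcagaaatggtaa
The *Jun* window is chr4:95052173-95052472 on the minus strand, holds 15 CpG and lies whole inside a shared peak of 1657 bp. The *Klf6* window is chr13:5861239-5861538 on the plus strand, with 23 CpG, 4 CCAAT boxes and 299 of 300 bases inside a shared peak. The *Jak1* window, chr4:101265174-101265473 on the minus strand, has 29 CpG and was the only one of the 6 with a CRE, and 186 of its bases lie in a shared peak. The *Socs3* window, chr11:117969317-117969616 on the minus strand, has 31 CpG, 2 GC boxes and no CCAAT box and lies whole inside a shared peak of 1294 bp. At *Tubb3* (chr8:123411303-123411602, plus strand, 26 CpG) and *Cd3e* (chr9:45009562-45009861, minus strand, 8 CpG) only 20 bases of the window lay in a shared peak. The *Cd3e* window held none of the 6 motifs.

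For contrast, the windows of the highest cone gene and the highest RGC list gene with a window and no peak in either file are given, chosen after their values were seen.
*Opn1sw*: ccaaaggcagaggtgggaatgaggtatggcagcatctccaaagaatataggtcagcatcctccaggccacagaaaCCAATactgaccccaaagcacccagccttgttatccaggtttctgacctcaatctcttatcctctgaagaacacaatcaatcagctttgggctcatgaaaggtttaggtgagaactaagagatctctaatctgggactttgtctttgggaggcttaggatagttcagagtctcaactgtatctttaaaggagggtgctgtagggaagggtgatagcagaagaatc
*Rbpms2*: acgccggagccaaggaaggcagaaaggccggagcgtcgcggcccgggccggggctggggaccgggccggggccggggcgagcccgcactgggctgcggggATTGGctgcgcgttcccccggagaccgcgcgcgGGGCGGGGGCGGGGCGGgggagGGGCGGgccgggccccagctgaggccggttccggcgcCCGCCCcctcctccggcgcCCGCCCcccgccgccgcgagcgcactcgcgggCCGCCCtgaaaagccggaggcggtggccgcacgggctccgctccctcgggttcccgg
The *Opn1sw* window, chr6:29380464-29380763 on the minus strand, has no CpG (0) and 46.0% G and C at a mean of 1359 TPM. The *Rbpms2* window, chr9:65630332-65630631 on the plus strand, has 48 CpG, 83.3% G and C and 7 GC boxes at a mean of 6.42 TPM. A low CpG number and a missing peak therefore went together at *Opn1sw* and not at *Rbpms2*.

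Of the 16139 genes listed at 0, 312 had a shared peak. An exact 0 need not mean that no RNA was made, since *Exosc6*, a subunit of the RNA exosome that every cell uses, and *Rmrp*, the RNA of a processing enzyme, were listed at 0 with a shared peak (named after their values were seen). Of these genes 98 were lncRNA genes, 76 miRNA genes, 41 protein-coding genes, 36 pseudogenes, 33 snoRNA genes and 20 snRNA genes. For 183 of them, 58.7%, the same peak lay at an end of an expressed gene too, and for 97 the peak lay at no expressed gene and the gene overlapped none. The protein-coding gene *Slc35g3*, a solute carrier gene, had a shared peak of 1196 bp that also lay at *Polr2a*, which encodes the large subunit of RNA polymerase II. *Mir707* shared a peak of 1422 bp with *Tbc1d17* and *Akt1s1*, and *Mir7238* one of 1609 bp with *Ankrd10*. The lncRNA genes *1700031P21Rik*, with the widest shared peak at 1826 bp, and *Gm36584*, at 1429 bp, had no expressed gene at theirs. The other genes among the 10 with the widest peaks were *Gm38670*, *Gm22513*, *Gm29383*, *Mir5620* and *Mir7666*. The RNA libraries do not measure mature miRNAs, and a small RNA gene at 0 TPM is listed at 0 and no more. Of the 5617 promoter windows of genes at 0 without a shared peak the median CpG number was 2, and of the 69 windows with one it was 27.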

How the data were processed

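Retinal cells sorted with a Thy1.2 antibody were profiled in 3 RNA-seq and 2 ATAC-seq libraries labelled WT. The TPM values were deposited by the authors, who trimmed reads with Trimmomatic, quantified transcripts with Salmon 1.0.0 and summed them per gene with tximport. Nothing was rescaled between libraries. The ATAC-seq peaks were called by the authors per library on GRCm38. Bowtie2 2.3.5.1 and MACS2 2.2.5 are named in the submitters' processing notes, the caller's settings are not given in the sources used here, and the files hold positions alone. Deposited tables of fold changes and p-values between cKO and WT, and the cKO libraries, were not used.

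Genes were called expressed at 1 TPM or more in all 3 libraries. Log values are log2(TPM + 1), with a pseudocount of 1. Peaks were intersected with bedtools 2.31.1, with 1 bp as the minimum overlap, and a shared peak is the stretch covered by both files. Genes were placed by symbol (38185) or synonym (378) in a RefSeq table (GRCm38.p6), and a shared peak within 1000 bp of either end counted. Shares have Wilson 95% intervals (Python 3.11.15, scipy 1.17.1). No group is compared, so no test was run. Replicates are separate samples of pooled retinas according to the labels, and SDs measure the spread between them. The peak and spread steps were tested on simulated data.

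The libraries and gene lists were chosen with earlier results of these data known. Named genes were the 20 with the highest mean TPM, up to 4 of the highest members of each list and its defining members near 0, the 10 with the largest spread among genes with a mean of at least 10 TPM, the 10 highest without a peak, and the 10 listed at 0 with the widest shared peak. Promoters printed were up to 2 per list overlapped by a shared peak. Others were chosen after their values were seen. Alternatives varied the TPM threshold, pseudocount, scaling, overlap, window, peak width and the libraries. Some genes that the rule names are not reported here.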

Additional observations from a re-analysis of the deposited data

How the results depend on the processing

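No paired analysis was possible because there is 1 group, and no test was run. With thresholds of 0.5 and 5 TPM, 16393 and 10703 genes were expressed, and without 1 RNA-seq library 15361 to 15944 were. The median SD of log2(TPM + 1) was 0.35 with no filter on low values, and 0.31 to 0.44 without 1 RNA-seq library, the lowest value being that without WT2. The number of cell type lists with a higher median member than the RGC list was 11, and 11 to 12 in every alternative tried. The share of expressed genes with a shared peak, 52.7% as reported, was 41.0% with a reciprocal overlap of 50%, 55.3% with a peak of each file whether overlapping or not, 57.7% within 3000 bp, 59.3% at starts alone, 54.4% in the promoter window (added after seeing the data), 46.8% with peaks of at least 300 bp, 54.8% among protein-coding genes, and 51.0 to 69.0% without 1 RNA-seq or ATAC-seq library. For genes listed at 0 it was 1.93% as reported and, in the same order, 1.44%, 2.32%, 3.66%, 1.77%, 1.26%, 1.60%, 1.01% and 1.98 to 9.66%. For expressed cell type list members it was 11.6%, and 5.80% with a reciprocal overlap of 50%, 18.1% within 3000 bp, and 28.3 to 29.7% with 1 ATAC-seq file alone. For programme list members it was 56.4%, 47.0% with the reciprocal overlap, and 60.7 to 76.9% with 1 file alone. Expressed genes were above genes listed at 0 in each of these settings, and programme members above cell type members in those that change the peaks, the overlap or the window. The list shares were not computed for protein-coding genes alone or without an RNA-seq library. The RGC list had 2 of 11 expressed members with a shared peak and 0 with the reciprocal overlap. The summed TPM of 29 of 32 lists moved by less than 1 SD when immunoglobulin genes were left out and the libraries rescaled (added after seeing the data), the others being the B cell, apoptosis and non-retinal product lists, and that of 7 did when each list lost its most abundant member. Depth limits these values in a way that cannot be measured, since neither TPM nor peak positions carry read numbers, and a gene listed at 0 or without a peak may lie below detection.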
